A study of Mus musculus with 4 samples.

Results

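Among all regions bound by TLE3 in cultured mouse adipocytes, the brown-only set holds the regions that the deposited peak table of brown adipocytes (BAT) lists and that both tables of white adipocytes, epididymal (eWAT) and inguinal (iWAT), leave out. There were 2183 such regions, 3.14% of the 69599 regions in the 3 lists together and 14.5% of the 15042 regions listed in BAT. Of these, 605 (27.7%) had 30 or more scaled reads in BAT, 188 (8.61%) lay within 1 kb of an annotated start site, and 81 did both. The members were selected by the deposited listing, so their BAT values are higher than their white values by construction, and that contrast is described below without a test.

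The BAT, eWAT and iWAT libraries came from stromal-vascular cells of male NMRI mice aged 4 to 5 weeks, pooled from 10 to 15 mice, and had been made into adipocytes in culture by day 8 with 1 µM rosiglitazone, a PPARγ agonist, and 30 nM insulin. BAT was a pool of interscapular, cervical and axillary fat. The cultures used had differentiated to more than 50%, per the labels. Cells of all 3 depots were crosslinked by disuccinimidyl glutarate (2 mM, 15 min) and then formaldehyde (1%, 30 min), and chromatin was immunoprecipitated with one anti-TLE3 antibody. An input library without antibody came from iWAT adipocytes alone. No genotype or treatment differed between the depots. With 1 library per depot and no replicates, depot and library cannot be told apart, and no p-value is given. Intervals are 95% and cover counting error only. No expression values were analysed, so the labelled cell types could not be checked against RNA of their marker genes.

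TLE3 belongs to the Groucho family of corepressors. These proteins have no DNA-binding domain of their own and are brought to chromatin by transcription factors, among them TCF/LEF factors of the Wnt pathway, HES factors of the Notch pathway, RUNX factors and, in adipocytes, PPARγ. In fat, TLE3 is known as a cofactor of the adipogenic programme that counteracts PRDM16, a driver of brown fat genes. Brown adipocytes oxidise fatty acids to make heat, through uncoupling protein 1 and under adrenergic signals that act through cyclic AMP.

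A larger share of the brown-only regions than of other BAT regions lay at promoters, and the sequences of 4 such promoters are shown with their values. Ctnnb1 encodes β-catenin, the coactivator of TCF/LEF factors. Tle1 encodes a Groucho corepressor, Notch2 a Notch receptor, and Lep the white-fat hormone leptin. The windows are RefSeq's, on GRCm38.p6, and run from 250 bases upstream to 50 bases downstream of the start site, 5′ to 3′ on the gene's strand. The files use mm9, so windows were matched by gene and not by position. By the deposited distances the region centre lay 45 bases upstream of the start in Ctnnb1, which has more than 1 annotated start, 54 bases downstream in Tle1, 96 bases upstream in Notch2 and 226 bases upstream in Lep. Capitals mark 2 motifs on either strand, the GC box GGGCGG (or CCGCCC) and the CCAAT box (or ATTGG).
Ctnnb1, first start site (GRCm38.p6 chr9:120933150-120933449, plus strand): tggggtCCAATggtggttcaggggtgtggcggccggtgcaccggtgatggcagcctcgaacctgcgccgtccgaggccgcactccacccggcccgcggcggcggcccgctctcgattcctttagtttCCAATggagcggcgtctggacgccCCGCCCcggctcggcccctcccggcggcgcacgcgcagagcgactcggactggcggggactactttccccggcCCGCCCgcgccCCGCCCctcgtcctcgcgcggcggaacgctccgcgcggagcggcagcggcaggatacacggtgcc
Ctnnb1, second start site (GRCm38.p6 chr9:120933328-120933627, plus strand): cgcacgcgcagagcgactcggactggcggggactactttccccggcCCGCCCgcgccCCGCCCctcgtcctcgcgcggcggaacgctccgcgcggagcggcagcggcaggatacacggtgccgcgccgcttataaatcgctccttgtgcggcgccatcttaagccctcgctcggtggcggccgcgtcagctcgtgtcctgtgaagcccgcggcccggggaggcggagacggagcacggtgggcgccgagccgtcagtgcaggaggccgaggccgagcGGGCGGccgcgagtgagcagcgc
Tle1 (GRCm38.p6 chr4:72200844-72201143, minus strand): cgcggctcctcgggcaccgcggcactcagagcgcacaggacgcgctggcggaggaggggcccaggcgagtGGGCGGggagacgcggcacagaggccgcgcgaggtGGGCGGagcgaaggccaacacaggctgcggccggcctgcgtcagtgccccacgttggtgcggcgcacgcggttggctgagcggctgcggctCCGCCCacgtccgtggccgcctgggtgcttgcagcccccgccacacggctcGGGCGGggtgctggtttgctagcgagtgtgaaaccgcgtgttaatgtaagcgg
Notch2 (GRCm38.p6 chr3:98013288-98013587, plus strand): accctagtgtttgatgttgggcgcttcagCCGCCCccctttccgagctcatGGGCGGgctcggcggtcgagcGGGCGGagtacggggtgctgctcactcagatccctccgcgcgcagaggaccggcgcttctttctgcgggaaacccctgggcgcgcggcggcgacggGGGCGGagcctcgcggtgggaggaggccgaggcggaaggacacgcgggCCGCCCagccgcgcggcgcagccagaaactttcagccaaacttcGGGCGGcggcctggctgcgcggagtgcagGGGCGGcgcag
Lep (GRCm38.p6 chr6:29059971-29060270, plus strand): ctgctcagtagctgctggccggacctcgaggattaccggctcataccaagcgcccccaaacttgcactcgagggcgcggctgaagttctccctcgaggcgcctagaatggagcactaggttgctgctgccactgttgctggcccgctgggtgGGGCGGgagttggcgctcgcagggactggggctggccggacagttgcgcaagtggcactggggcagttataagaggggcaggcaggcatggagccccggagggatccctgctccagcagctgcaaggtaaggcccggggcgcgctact

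The GC content of these windows was 75.3% and 75% for Ctnnb1, 73.7% for Tle1, 73.0% for Notch2 and 66.0% for Lep, against a median of 52.7% over all 32851 windows in the reference table. The GC box occurred 3 times in each Ctnnb1 window, 4 times in Tle1, 7 times in Notch2 and once in Lep. The Ctnnb1 windows overlap, so some of their GC boxes are the same. The CCAAT box occurred in the first Ctnnb1 window, which held 2, and in none of the other windows shown. Over all windows, 35.7% held a GC box and 37.4% a CCAAT box, so these matches are a description of the letters and nothing more. Of the 188 brown-only promoter regions, 139 (73.9%) had an entry in the reference table. That is under the 80% needed, so a check of GC content or motifs over the whole promoter set is void and none is given. The promoters shown were picked after their values were seen, so their GC content does not speak for the brown-only promoters as a set.

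Of these 4, the β-catenin promoter had the lowest white values. Its region (mm9 chr9:120842358-120842588) held 18 reads in BAT, 49.8 scaled reads (29.5 to 78.7), against 1 read in eWAT (0.88 scaled reads), 1 read in iWAT (0.53 scaled reads) and 3.25 scaled reads in the input. Both white values were below the limit that 3 reads set, 2.65 scaled reads in eWAT and 1.58 in iWAT, and below the input, so the region was at background in white adipocytes at this depth. The Notch2 promoter (mm9 chr3:97817250-97817480) had 33.2 scaled reads in BAT (17.1 to 58.0), against 5.30 in eWAT, 5.78 in iWAT and 2.60 in the input. BAT was the only library in which it was high. The Lep promoter (mm9 chr6:29009880-29010110) had 27.65 scaled reads in BAT (13.3 to 50.9), against 8.83 in eWAT, 4.20 in iWAT and 1.95 in the input. Its BAT value rests on 10 reads, and its interval overlaps that of eWAT, which reached 16.2.

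The Tle1 promoter (mm9 chr4:71861758-71861988) was of another kind. It had 105 scaled reads in BAT (74.4 to 144), against 41.5 in eWAT, 60.4 in iWAT and 7.16 in the input. Both white values were well above 15, the lowest value that a listed region had in its own library. Neither reached 10 times the input, 71.6 scaled reads, a ratio that every listed region had in its own library. Whether that limit set the listing was not tested. A white-listed region lay 0.37 kb away.

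Values here are reads in a 230 bp region, brought by the authors to the same total in each library. One BAT read counted as 2.77 scaled reads, one eWAT read as 0.883, one iWAT read as 0.526 and one input read as 0.651, so the BAT library was the shallowest. On the assumption of a total of 10 M reads, BAT held 3.62 M reads, eWAT 11.3 M, iWAT 19.0 M and the input 15.4 M. A value of 0 allows up to 3 reads, which is 8.30 scaled reads for BAT, 2.65 for eWAT and 1.58 for iWAT. This bound is one-sided and lower than the upper end of the two-sided Poisson intervals given beside values, which is 3.26 for 0 reads in eWAT. Chromosomes with more than 1 BAT region contributed evenly, with 11.7% of BAT regions listed in BAT alone on chromosome 3 and 16.4% on chromosome 14, the ends of the range.

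Across the 2183 brown-only regions the median was 22.1 scaled reads in BAT (lowest 16.6, highest 199), against 6.18 in eWAT (0 to 68.9), 6.83 in iWAT (0 to 77.3) and 1.30 in the input (0 to 8.46). Most of them were weak. The lowest BAT value, 16.6, is 6 reads with an exact Poisson interval of 6.09 to 36.1 scaled reads, and 185 regions had it. Another 650 rested on 7 reads, and 1578 (72.3%) on 10 reads or fewer. Just outside the limit, 1885 regions of the merged set had 13.8 scaled reads in BAT, 5 reads, reached 10 times the input and were not listed. At the 30 mark, 153 members had 27.65 scaled reads and 101 had 30.4, which is a difference of 1 read. The part of BAT depth in which regions are members was not tested.

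Regions of 2 kinds made up the set. In 1839 regions (84.2%) both white values were under 15 scaled reads, and in 344 (15.8%) at least 1 white library reached 15 but not 10 times the input, apart from 1 region in eWAT that met both limits and was not listed. Both white values were under 7.5 in 936 regions (42.9%) and 0 in 121. Among the 605 stronger regions the second kind was common: 282 (46.6%) had a white value of 15 or more, and only 129 had both under 7.5. The median input was 2.60 scaled reads in these 605 regions, against 0.65 in the 1578 weaker ones, where the highest was 2.60. A listed region had at least 10 times the input in its own library, so weaker members could not have a high input. The second kind needed a white value of 15 or more that was under 10 times the input. The listing limits thus fixed part of the input contrast and of the larger share of the second kind. Among the 188 promoter regions, 148 had both white values under 15 and 40 did not.

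Set against the higher of the 2 white values, with low values raised to the 3-read limit, BAT was 2.87-fold higher at the median (log2 1.52, 1.47 to 1.65). Of the members, 1537 (70.4%) were at 2-fold or more over both white libraries, against 2.45% of all 69599 regions, a contrast that the listing itself used. Regions listed in all 3 depots had a median log2 ratio of −0.75 against eWAT, and of −0.66 against iWAT, so common sites took fewer of the BAT reads. Scaled to those common regions, 2117 members (97.0%) reached 2-fold, against 4.41% of all regions. The promoter regions reached 119 scaled reads in BAT and 60.4 in the higher white library, below the highest values of the set.

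**Figure D1:**
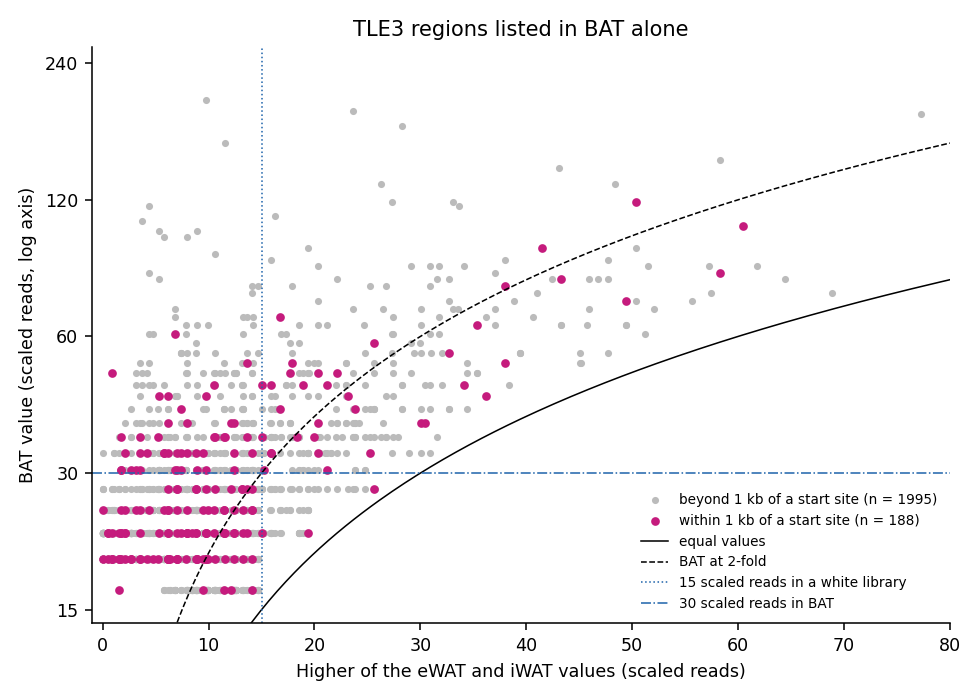
BAT value (vertical, log axis) against the higher of the eWAT and iWAT values (horizontal), both in scaled reads, for each of the 2183 regions listed in BAT alone, with the 188 within 1 kb of a start site in colour. All points lie above the line of equal values, as the listing requires, and 344 regions lie at or right of 15 scaled reads in a white library.

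The 10 highest BAT values among the members show both kinds. The highest was an intergenic region 36.8 kb upstream of Mapk4, an atypical MAP kinase gene (mm9 chr18:74261274-74261504), with 199 scaled reads in BAT (156 to 251), against 9.71 in eWAT, 8.93 in iWAT and 1.30 in the input. BAT was high and both white libraries were low. An intron 6 region of Cnnm1, which encodes a divalent metal transport mediator of the cyclin M family, had 160 scaled reads in BAT, against 8.83 in eWAT, 11.6 in iWAT and 0.65 in the input. A region 14.4 kb upstream of Slc2a6, a gene of the facilitative glucose transporter family, had 188 in BAT, against 20.3 in eWAT, 23.7 in iWAT and 3.25 in the input. Both white values were under 15 scaled reads at Mapk4 and Cnnm1. At Slc2a6 both were above 15 but under 10 times the input, 32.5, so it was of the second kind. The listing and the ranking chose the high BAT values.

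Others of the 10 were high in every library. A region 175 kb upstream of Ntm, which encodes the neural adhesion protein neurotrimin, had 185 scaled reads in BAT, against 38.9 in eWAT, 77.3 in iWAT and 8.46 in the input. Its iWAT value was the highest white value of any member, and its input was the highest too. Srp14, a gene of the signal recognition particle, had a region with 147 in BAT, against 58.3 in eWAT, 53.1 in iWAT and 5.86 in the input. Gcgr, the glucagon receptor gene, had a promoter region with 119 in BAT, against 50.3 in eWAT, 34.7 in iWAT and 5.86 in the input. The other 4 lay near Hrct1 (174 in BAT), 4930591A17Rik (141), Ncs1 (130) and Slit2, an axon guidance ligand gene (130), with white values of 15.0 to 48.4 scaled reads.

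Among stronger members, the 10 with the largest ratio to the higher white value were led by Igf1r, the receptor of insulin-like growth factor 1. Its region in intron 2 (mm9 chr7:75169624-75169854) had 108 scaled reads in BAT (76.7 to 147), against 1.77 in eWAT, 3.68 in iWAT and 1.30 in the input, 29.3-fold over the higher white value. A white-listed region lay 0.75 kb away. Fam189a1 had an intron 1 region with 116 in BAT (83.7 to 157), against 4.42 in eWAT, 1.58 in iWAT and 0.65 in the input. Vax2os, a non-coding antisense gene of the homeobox gene Vax2, had a region in an exon with 102 in BAT, against 5.30 in eWAT and 2.10 in iWAT. At all 3, BAT alone was high. Mapk4 and Ctnnb1 were also among the 10, with regions near Auts2 (82.96 in BAT), Pde8a, a gene of a cyclic AMP phosphodiesterase (99.6), Ybx3 (49.8), Gnao1 (41.5) and Eya4 (80.2), where white values ran between 1.05 and 5.78 scaled reads. The Ybx3 region lay in a SINE of the B1 class, and its input of 3.90 was above both of its white values.

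The brown-only regions lay near start sites more often than other BAT regions. Within 1 kb were 8.61% of them (7.51 to 9.86), against 2.84% of the 12859 regions listed in BAT and a white depot, a difference of 5.77 points (4.63 to 7.05). Against all other regions the difference was 5.78 points (4.66 to 7.03). Against the 830 regions listed in BAT and eWAT but not iWAT, 4.94% of which lay within 1 kb, it was smaller, 3.67 points (1.65 to 5.46), and against the 995 listed in BAT and iWAT but not eWAT it was 6.10 points (4.49 to 7.59). The difference was also present at matched BAT values. Among regions with 30 or more scaled reads in BAT the shares were 13.4% of brown-only regions and 3.05% of shared ones, a difference of 10.3 points (7.81 to 13.3). Among those under 30 the shares were 6.78% and 2.58%, a difference of 4.20 points (2.98 to 5.60).

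Strong regions listed in 1 white depot alone did not have as high a share. At 30 or more in their own library, 4.89% of eWAT-only regions and 2.16% of iWAT-only regions lay within 1 kb. This mark is fewer reads in BAT, where 1 read counts 2.77 scaled reads, than in eWAT (0.883) or iWAT (0.526). The brown-only share was higher by 8.50 points (5.95 to 11.5) than the eWAT-only one and by 11.2 points (8.71 to 14.2) than the iWAT-only one. Across BAT values, the brown-only share was 2.70% at 6 reads, 5.54% at 7 reads, and between 8.82% and 14.8% in each higher class, while the shared regions stayed between 2.38% and 3.65%. At 6 and at 7 reads the intervals of the 2 sets overlap. Leaving out regions where a white library reached 15 kept the difference at 5.21 points (4.01 to 6.57). Promoter members had a median input of 1.95 scaled reads, against 0.65 in members further away. With regions of more than 3 scaled reads in the input left out, the difference was 5.29 points (4.12 to 6.60).

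**Figure D2:**
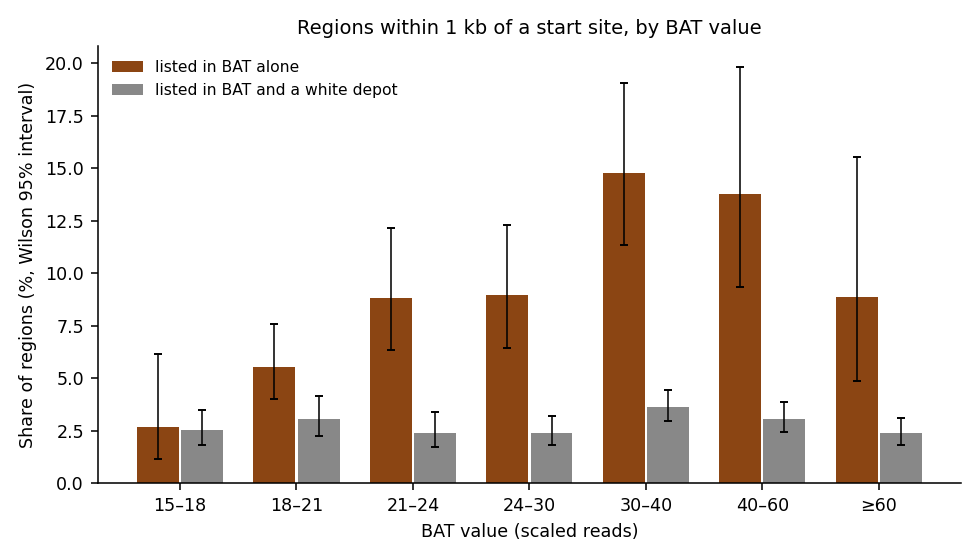
Share of regions within 1 kb of a start site (vertical, percent, with Wilson 95% intervals) in classes of BAT value in scaled reads (horizontal), for regions listed in BAT alone and regions listed in BAT and a white depot. The BAT-alone share is 14.8% at 30 to 40 scaled reads, where that of the shared regions is 3.65%, and the intervals overlap in the 2 lowest classes.

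Positions around the start were uneven. Of the 188 promoter regions 114 lay upstream and 74 at or downstream of the start, and 77 had their centre between 250 bases upstream and 50 bases downstream. The upstream share was 60.6% of these, against 63.6% of the 365 shared promoter regions, a difference of −2.92 points (−11.5 to 5.47), with an interval that includes 0. The window held 41.0% of the brown-only and 28.2% of the shared promoter regions, a difference of 12.7 points (4.42 to 21.1). The 250 bases just upstream held 64 members, 2.93% of the set, against 0.754% of the shared regions. The 250 bases just downstream held 34 members, 1.56%, against 0.187% of the shared regions. Beyond 1 kb the shares of the 2 sets were closer together.

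**Figure D3:**
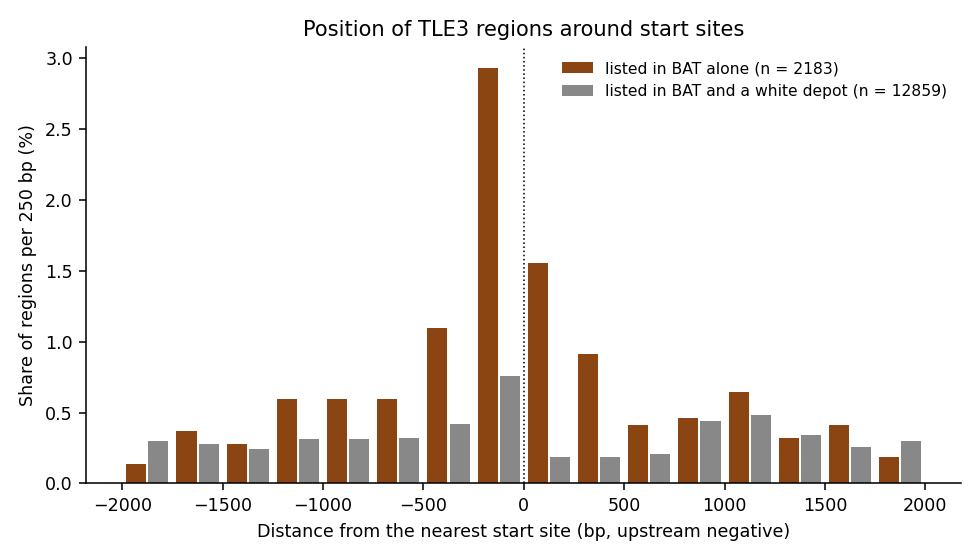
Share of regions (vertical, percent per 250 bp) by distance of the region from the nearest start site (horizontal, bp, upstream negative), for the 2183 regions listed in BAT alone and the 12859 listed in BAT and a white depot. The BAT-alone bar just upstream of the start reaches 2.93%, where the shared regions reach 0.754%.

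Intergenic regions made up 44.3% of the brown-only set, against 50.2% of shared regions, a difference of −5.89 points (−8.14 to −3.63). Against eWAT-only regions the difference was −1.70 points (−3.91 to 0.53), and against regions in BAT and eWAT −1.32 points (−5.30 to 2.64), both with intervals that include 0, and against iWAT-only regions −10.5 points (−12.7 to −8.28). Introns held 44.9% of brown-only and 45.1% of shared regions, with a difference of −0.13 points (−2.38 to 2.14). Exons held 1.19%, against 0.622%. The median distance to a start site was 28.2 kb in brown-only regions and 38.7 kb in shared ones. White-listed regions lay further from brown-only regions than from shared ones. The nearest white-listed region lay 8.45 kb away at the median, against 5.21 kb for a shared region, and 55.2% had one within 10 kb, against 68.8%, a difference of −13.6 points (−15.9 to −11.4). The differences were smaller from regions listed in a single white depot, of which 58.5% (eWAT only) and 59.6% (iWAT only) had another white-listed region within 10 kb. At 30 or more scaled reads the differences from these were −2.11 points (−6.22 to 1.85) for eWAT and −2.38 points (−6.47 to 1.57) for iWAT, with intervals that include 0. Within 1 kb the share was 10.4% of brown-only regions, against 7.63% of eWAT-only ones, a difference of 2.72 points (1.44 to 4.13), and 9.02% of iWAT-only ones, a difference of 1.33 points (0.0357 to 2.75).

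The 10 promoter regions with the highest BAT values began with Gcgr and Tle1, given above. Fxyd1, which encodes the sodium pump regulator phospholemman, had 94.0 scaled reads in BAT, against 41.5 in eWAT, 33.6 in iWAT and 6.51 in the input. Zfp36l1, which encodes an RNA-binding protein that promotes mRNA decay, had 82.96 in BAT, against 58.3 in eWAT, 49.9 in iWAT and 7.81 in the input. Cltc, the clathrin heavy chain gene, had 80.2 in BAT, against 43.3 in eWAT, 42.6 in iWAT and 7.81 in the input. Socs2, a gene of a suppressor of cytokine signalling, had 77.4 in BAT (51.4 to 112), against 37.97 in eWAT, 35.7 in iWAT and 5.86 in the input. All 4 had clear white signal and high input.

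The promoter region of Ncs1, which encodes a neuronal calcium sensor, was cleaner, with 60.8 scaled reads in BAT (38.1 to 92.1), against 3.53 in eWAT, 6.83 in iWAT and 2.60 in the input. Ncs1 also had the intron 1 region given above, 9.04 kb downstream of its start, with 130 in BAT, against 15.0 in eWAT and 26.3 in iWAT. Hexim2, a gene of an inhibitor of the elongation factor P-TEFb, had a promoter region with 66.4 in BAT (42.5 to 98.7). Its other values were 16.8 in eWAT, 14.2 in iWAT and 5.21 in the input. The eWAT value was above 15 but under 10 times the input, so this region was of the second kind. The remaining 2 lay at Hoxa3 (71.9 in BAT) and 2310040G24Rik (63.6), both with white values above 35 scaled reads.

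Simple repeats were a second feature. They held 59 brown-only regions, 2.70% (2.10 to 3.47), against 0.544% of shared regions, a difference of 2.16 points (1.54 to 2.93). Regions shared with a single white depot had more than the pooled share. It was 1.81% in BAT and eWAT, where the difference of 0.90 points (−0.41 to 1.94) includes 0, and 1.41% in BAT and iWAT, a difference of 1.30 points (0.18 to 2.25). Of the 59, 36 (61.0%) were CA or TG repeats. Their median was 24.9 scaled reads in BAT, against 4.42 in eWAT, 5.78 in iWAT and 1.30 in the input. At 60 or more scaled reads in BAT, 7.96% of brown-only regions lay in simple repeats (4.25 to 14.4), against 0.433% of shared ones (0.235 to 0.795). Examples are the Nr4a2 intron 1 region, with 35.95 scaled reads in BAT, against 10.6 in eWAT and 10.5 in iWAT, and a Ptprg intron 2 region, with 33.2 in BAT, against 4.42 in eWAT and 2.10 in iWAT. Both lie in TG repeats.

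SINE repeats held 140 brown-only regions, 6.41%, against 2.64% of shared regions, a difference of 3.78 points (2.78 to 4.91). At 30 or more scaled reads in BAT the SINE difference was 1.75 points (0.41 to 3.65). The LINE difference was 0.70 points (−0.32 to 1.84) over all members but went opposite ways by BAT value, 1.65 points (0.28 to 3.19) under 30 and −2.90 points (−3.90 to −1.37) at 30 or more. The LTR difference was 0.06 points (−0.86 to 1.11). The BAT library was also relatively high at simple repeats outside the set. In the 41 simple-repeat regions listed in all 3 depots, the median log2 ratio of BAT over the mean of eWAT and iWAT was 0.07 (−0.35 to 0.28), against −0.75 (−0.76 to −0.73) in the 9292 common regions with no annotated repeat. In the 287 common SINE regions it was −0.68 (−0.77 to −0.59). Common regions within 1 kb of a start site had −0.60 (−0.68 to −0.52, n = 299), against −0.76 (−0.77 to −0.74) beyond. No input was made from BAT, and the part of the missing matched input in these values was not tested. Without simple repeats the start-site difference was 5.82 points (4.65 to 7.12).

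**Figure D4:**
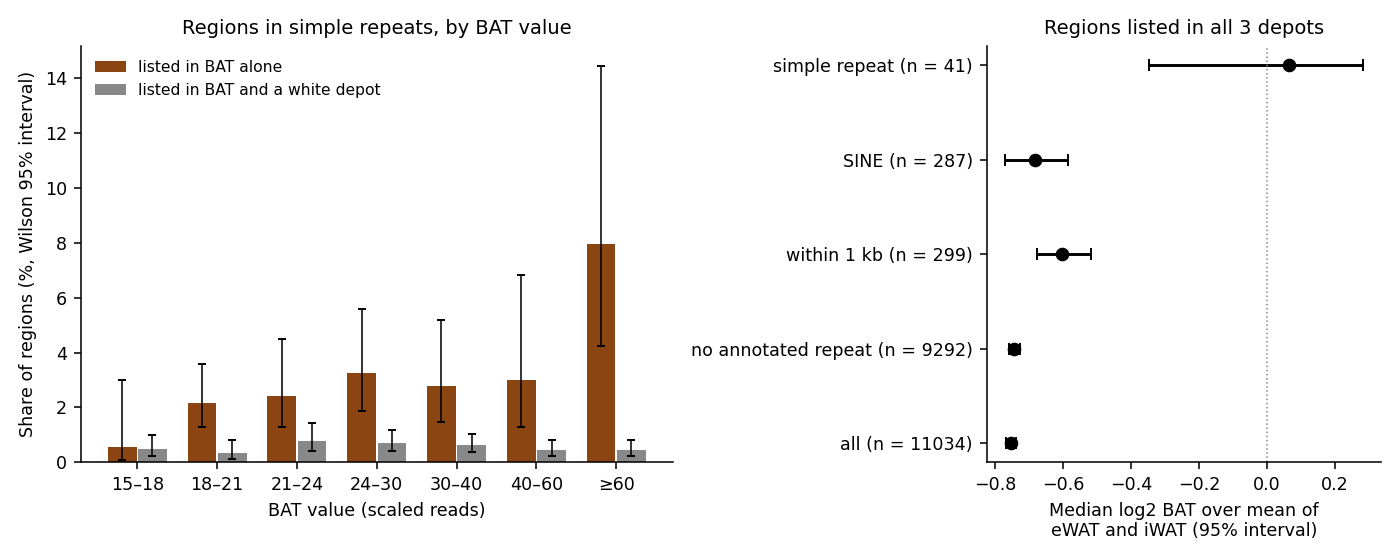
Left, share of regions in annotated simple repeats (percent, Wilson 95% intervals) by BAT value in scaled reads, for regions listed in BAT alone and in BAT and a white depot; right, median log2 ratio of BAT over the mean of eWAT and iWAT, with 95% intervals, in subsets of the 11034 regions listed in all 3 depots. The BAT-alone share is 7.96% at 60 or more scaled reads, and the common simple-repeat regions have a median log2 ratio of 0.07 where all common regions have −0.75.

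The 2183 regions had 1900 genes as their nearest gene, and 1660 of these (87.4%) were also nearest to a region listed in a white depot. Counted by region, 88.5% of members had such a gene. Among regions listed in BAT and a white depot, 94.7% had a gene with another white-listed region, a larger share. Most genes, 1665, had 1 member, 198 had 2 and 37 had 3 or more. The most members per gene were 5. Those nearest to 1700085C21Rik all lie in introns of Rgs6, which encodes a regulator of G protein signalling, with 88.5, 38.7, 33.2, 24.9 and 19.4 scaled reads in BAT, against 0 to 37.97 in eWAT and 2.10 to 30.5 in iWAT. Ptprg, a receptor tyrosine phosphatase gene, had 5 members with 16.6 to 33.2 scaled reads in BAT, against 0.88 to 12.4 in eWAT and 0 to 10.5 in iWAT. Another 7 genes tied at 4 members each, namely Ntm, Pard3, a cell polarity gene, 4930572O13Rik, Tenm4, Cd93, Mir1a-2 and Esrrg. At Mir1a-2 all 4 of its BAT-listed regions were members. Pard3 was the nearest gene of 43 regions of the merged set and Ptprg of 31.

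Thermogenic genes held 14 brown-only regions, near 10 of the 21 list genes with any BAT region, where 1900 of all 7093 genes with a BAT region (26.8%) had one. That is 21.9% (13.5 to 33.4) of the 64 BAT regions near genes of the list, against 14.5% of all BAT regions, which the interval includes, and their median BAT value was 22.1 scaled reads, equal to that of all members. Dio2, which encodes the deiodinase that activates thyroid hormone in brown fat, had the highest. Its region, 93.4 kb downstream of the start (mm9 chr12:91883934-91884164), had 55.3 scaled reads in BAT (33.8 to 85.4), against 7.95 in eWAT, 7.88 in iWAT and 0.65 in the input. Nrg4, a gene of a growth factor secreted by brown fat, had 35.95 in BAT, against 15.0 in eWAT and 9.98 in iWAT. Esrrg, a gene of an oestrogen-related receptor that drives oxidative genes, had 4 members, the strongest with 33.2 in BAT, against 17.7 in eWAT and 15.8 in iWAT, and one at a promoter with 22.1 in BAT, against 9.71 in eWAT and 4.20 in iWAT. White signal was lowest at Dio2 among these 3.

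Otop1, a proton channel gene, had a promoter region with 33.2 scaled reads in BAT, against 5.30 in eWAT and 9.46 in iWAT. Kcnk3, a potassium channel gene active in brown fat, had an intron region with 33.2 in BAT, against 0 in eWAT and 1.05 in iWAT. Both regions near Ppargc1a, which encodes the coactivator PGC-1α, were at the lower limit, with 16.6 scaled reads in BAT, against 10.6 and 14.1 in eWAT and 10.5 and 11.04 in iWAT. Each rests on 6 BAT reads.

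Brown lineage and thermogenic transcription factors held 10 brown-only regions among 71 BAT regions, 14.1% (7.83 to 24.02). The share of all BAT regions, 14.5%, lies in that interval, so the list did not stand out from BAT regions in general. None of the 10 had 30 or more scaled reads in BAT, and none lay within 1 kb of a start. Ppara, a gene of the fatty acid receptor PPARα, had a pair of regions near each other upstream of its start, both with 27.65 in BAT, against 7.95 and 6.18 in eWAT and 8.93 and 1.05 in iWAT. Zic1, a marker gene of classical brown fat, had a region with 27.65 in BAT, against 3.53 in eWAT and 1.05 in iWAT. Other brown adipocyte markers, Ucp1, Cidea, Ebf2, Prdm16 and Lhx8, were not among the genes of this or the thermogenic list that had a member. Tbx15, a developmental factor of brown and subcutaneous fat, had an intron 1 region with 27.65 in BAT, against 0 in eWAT and 25.75 in iWAT. That region is listed in BAT alone, yet its iWAT value of 49 reads nearly equals BAT. Its iWAT value lies under 10 times its input, 26.0, by less than 1 read, and the step that kept it off the iWAT list was not tested.

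Genes of white fat and depot position held 4 members among 33 BAT regions, 12.1% (4.82 to 27.3), the Lep promoter among them. Adipocyte identity and lipid storage genes held 5 among 65, 7.69% (3.33 to 16.8). Both intervals include 14.5%, the share of all BAT regions. Fabp4, the fatty acid binding protein of adipocytes, had a region with 35.95 scaled reads in BAT, against 15.9 in eWAT and 11.04 in iWAT. The Gpd1 region, at the transcript end of its neighbour Smarcd1, had 35.95 in BAT, against 11.5 in eWAT and 18.4 in iWAT, and the Lpin1 intron region had 22.1 in BAT, against 15.9 in eWAT and 11.6 in iWAT. White signal was present at all 3.

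Nuclear genes of oxidative phosphorylation held 5 members among 27 BAT regions, 18.5% (8.18 to 36.7). That interval includes 14.5%, the share of all BAT regions. Cox7b, a subunit gene of cytochrome oxidase, had an intron region 789 bases downstream of its start with 24.9 scaled reads in BAT (11.4 to 47.2), against 1.77 in eWAT and 1.05 in iWAT, 2 reads each. Ndufa3, a complex I subunit gene, had a region 391 bases upstream of its start with 33.2 in BAT, against 6.18 in eWAT and 0.53 in iWAT, which the deposited annotation gives to the promoter of Oscar. The Cox6c region, with 24.9 in BAT, lies in an exon of Vps13b. Mitochondrial biogenesis genes held 1 member among 18 (5.56%), in Nrf1 (19.4 in BAT). Fatty acid oxidation genes held 5 among 24, 20.8% (9.24 to 40.5), an interval that also includes 14.5%. They were led by Slc22a5, a carnitine transporter gene, with 33.2 in BAT, against 13.3 in eWAT and 12.6 in iWAT. Acsl5 (27.65 in BAT) had 23.8 in eWAT, and Acadl (24.9 in BAT) had 7.06.

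The Groucho family held 3 members among 25 BAT regions, 12% (4.17 to 30.0), against 14.5% of all BAT regions, which the interval includes. Beside the Tle1 promoter, Tle3 itself had a region in intron 17 (mm9 chr9:61261819-61262049) with 58.1 scaled reads in BAT (35.9 to 88.8), against 8.83 in eWAT, 7.88 in iWAT and 2.60 in the input, where BAT was high and both white libraries low. Tle4 had an intron 8 region with 22.1 in BAT (9.55 to 43.6), against 2.65 in eWAT and 1.58 in iWAT, 3 reads each.

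Wnt-TCF and Notch genes held 14 members near 11 genes, 13.1% (7.96 to 20.8) of the 107 BAT regions on the list. The share of all BAT regions, 14.5%, lies in that interval. Of the 14 members, 6 lay within 1 kb of a start, against 8.61% of all members. Beside Ctnnb1 and Notch2, these included the promoters of Wnt5b, a Wnt ligand gene, with 44.2 scaled reads in BAT, against 19.4 in eWAT and 23.1 in iWAT, and of Apc, a scaffold of the β-catenin destruction complex, with 22.1 in BAT, against 6.18 in eWAT and 7.36 in iWAT. Axin2, a feedback inhibitor of Wnt signalling, had a promoter region with 24.9 in BAT, against 6.18 in eWAT and 3.68 in iWAT, and an intron region 873 bases downstream with 22.1 in BAT, against 1.77 in eWAT and 1.05 in iWAT. Fzd1, a Wnt receptor gene, had a distal region with 22.1 in BAT, against 0 in eWAT and 0.53 in iWAT. These values rest on 8 to 16 reads in BAT.

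Cyclic AMP and adrenergic genes held 12 members among 52 BAT regions, 23.1% (13.7 to 36.1), near 6 genes and none within 1 kb. That interval includes 14.5%, the share of all BAT regions. Creb3l1, a gene of a CREB-related factor, had 47.0 scaled reads in BAT, against 8.83 in eWAT and 17.3 in iWAT. Adra1a, the α1A-adrenergic receptor gene, had a pair of intron 2 regions, one with 41.5 in BAT, against 16.8 in eWAT and 25.2 in iWAT, and one with 30.4 in BAT, against 7.06 in eWAT and 14.7 in iWAT. Pde3a, a phosphodiesterase gene, had 3 distal regions with 16.6 to 30.4 in BAT.

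**Figure D5:**
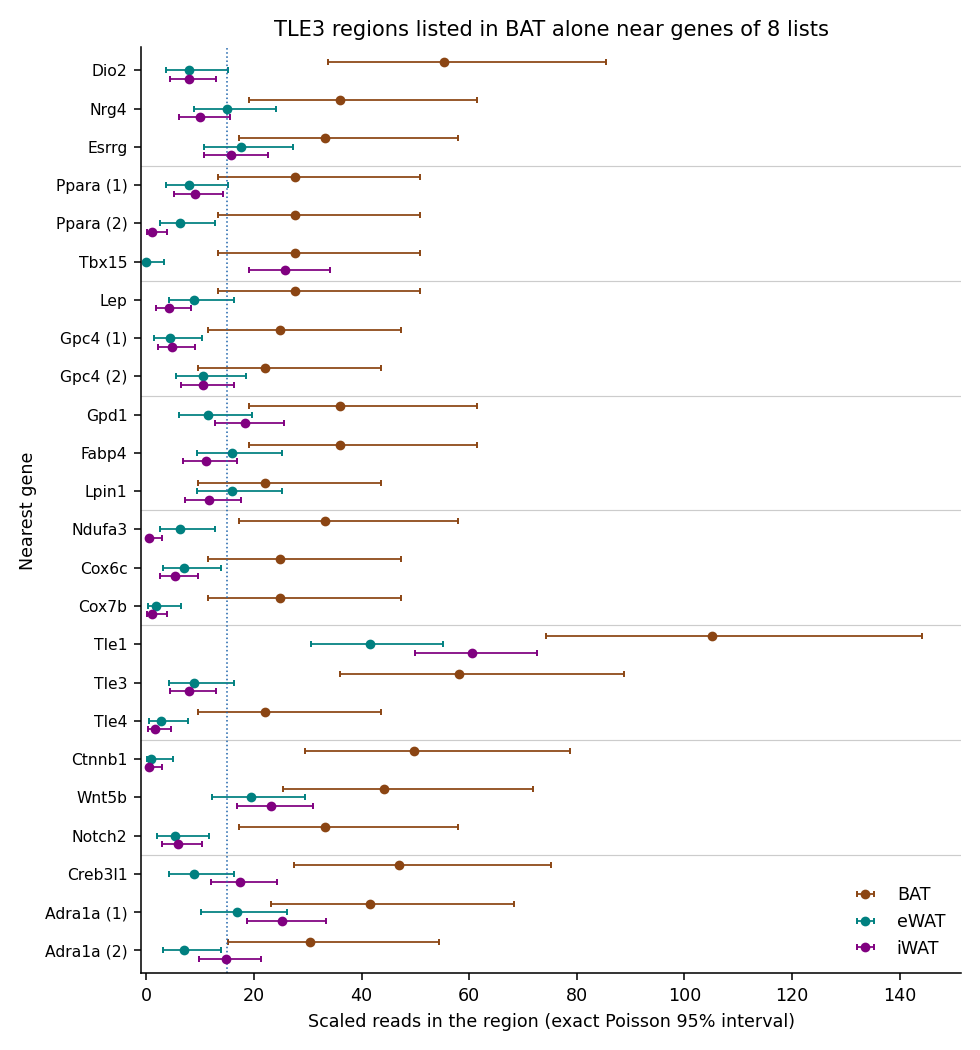
Scaled reads in BAT, eWAT and iWAT (horizontal, with exact Poisson 95% intervals; the dotted line is 15 scaled reads) at the brown-only regions with the highest BAT values near genes of 8 lists, separated by grey lines in the order thermogenesis, brown transcription factors, white and position genes, adipocyte genes, oxidative phosphorylation, Groucho family, Wnt and Notch, and cyclic AMP. Dio2, Tle3 and Ctnnb1 have 55.3, 58.1 and 49.8 scaled reads in BAT and white values under 9, and BAT and iWAT nearly coincide at Tbx15.

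The shares in the other lists are read against the same 14.5%. Immediate early and AP-1 genes held 6 among 51 BAT regions (11.8%), with Ier5 and Klf6 at 38.7 scaled reads in BAT, where Ier5 had 9.71 in eWAT and 15.8 in iWAT and Klf6 had 23.0 in eWAT and 19.4 in iWAT. Clock genes held 1 among 21 (4.76%), in Rora (24.9 in BAT). Ribosomal protein and translation genes held 6 among 19, 31.6% (15.4 to 54.0). This was the only list whose interval left out 14.5%, and no allowance was made for the number of lists. None of the 6 lay within 1 kb of a start. The Rplp1 region, 50.6 kb from the start, had the highest BAT value (55.3, against 8.83 in eWAT and 7.88 in iWAT). The Rps13 region (22.1 in BAT) lay at the transcript end of its neighbour Pik3c2a. At the Rpl38 region, 101.6 kb from the start, 19.4 in BAT stood against 0 in both white libraries. Chaperone and proteasome genes held 3 among 12, 25% (8.89 to 53.2), an interval that includes 14.5%, with regions near Psmc1 and Psmd4 at 19.4 in BAT each.

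For cell types other than adipocytes, fibroblast and preadipocyte genes held 5 members among 47 BAT regions (10.6%), near Dpt (60.8 scaled reads in BAT, against 10.6 in eWAT and 17.3 in iWAT), Twist2 (35.95), Dpp4 (27.65) and others. Endothelial genes held 2 among 14 (14.3%), near Kdr (24.9) and Cdh5 (19.4). Skeletal muscle genes held 2 among 6, 33.3% (9.68 to 70.0), both near the same gene, Mef2c (44.2 and 16.6). Neuronal genes held 4 among 14, 28.6% (11.7 to 54.6), near Th (38.7), Syt1 (22.1), Rbfox3 (19.4) and Nefm. The muscle and neuronal intervals both include 14.5%, the share of all BAT regions. Macrophage genes had 2 BAT regions and 0 members. Binding near a gene is not its expression, and the part of other cell types in the set was not tested.

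The edge of the set by white value is soft. Just inside, beside Ntm, lay a region near Htra3 with 74.7 scaled reads in BAT, against 68.9 in eWAT, 48.4 in iWAT and 7.16 in the input. Just outside, listed in eWAT with 15.0 scaled reads, were regions near Vps4b (16.6 in BAT and 9.46 in iWAT) and Cntnap5a (22.1 in BAT and 9.98 in iWAT). The first has far more TLE3 signal in white adipocytes than the 2 that are excluded for being listed there.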

How the data were processed

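TLE3 ChIP-seq was deposited as 1 peak table per depot, and the tables carry a value for the input and for all 3 TLE3 libraries. The deposited values are a signal, reads per 230 bp region which the authors brought to the same total in each library. The submitters' processing notes name STAR, HOMER and mm9 but no role for them. The peak caller's settings and control are not given in the sources used here. The deposited peak score was 0 throughout and ranked nothing. Within each library 100% of values were whole multiples of 1 read within 0.1 read. No count test was run, since each depot has 1 library.

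The lists were joined by region identifier, and a member is a region present in the BAT list and in neither white list. Limits of 15 scaled reads and of 10 times the input were read from the values. Ratios raise each value to 3 reads of its library first. Shares carry Wilson intervals, differences of shares Newcombe intervals, reads exact Poisson intervals and medians order-statistic intervals, computed with Python 3.11.15, scipy and pandas. The Newcombe intervals, the recovered size of 1 read and the 2-fold rule were tested on simulated data. Regions are not replicates. Regions were named as the 10 highest in BAT, the 10 largest ratios at 30 or more scaled reads, the 10 highest within 1 kb, the members of the 5 genes with most members (ties broken by summed BAT value), up to 3 per gene list, and those at the edge of the rule. Some further list members are named after their values were seen. Members, lists and rules were chosen with earlier results of these data known. Symbols for annotated transcripts came from RefSeq on GRCm38.p6, whose coordinates were used for the promoter windows alone. The values of some list genes are not reported here.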

Additional observations from a re-analysis of the deposited data

How the results depend on the processing

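No paired analysis was possible because each depot has 1 library, and for the same reason no library could be left out. The set shrank from 2183 regions to 605 with a BAT minimum of 30 scaled reads, 159 with a minimum of 50 and 936 with both white values under 7.5. The share within 1 kb of a start site, 8.61%, was 13.4% with a BAT minimum of 30 and 10.1% without regions of zero input. It was 6.505% within 500 bp, 11.5% within 2 kb, 18.9% within 5 kb and 6.55% by the deposited promoter annotation. The difference from all regions shared with a white depot kept its sign and an interval above 0 under these settings. Against regions in BAT and eWAT alone, within 5 kb, it was 2.77 points (−0.32 to 5.67), and at 6 BAT reads the shares were 2.70% and 2.52%. The share in simple repeats was 3.80% with a BAT minimum of 30. The median log2 ratio of BAT over the higher white value was 2.24 when scaled to the regions listed in all 3 depots and 3.01 when scaled to all regions. The share at the fold threshold, 70.4% at 2-fold, was 88.3% at 1.5-fold, 38.4% at 4-fold and 97.0% when scaled to the common regions. The alternatives on white values under 15 and on simple repeats were chosen after seeing the data. The planned check of GC content and motifs was not run, since too few promoters had a reference entry. Of all members, 72.3% rest on 10 BAT reads or fewer. The cause of the changes was not tested.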

Other observations

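White signal at the weakest brown-only regions changed abruptly with a single BAT read. Of the 185 regions with 6 reads in BAT, 1 (0.541%) had both white values under 5 scaled reads, and the median of the higher white value was 11.04 scaled reads. Of the 650 regions with 7 reads in BAT, 371 (57.1%) had both white values under 5, and that median was 3.68. It was 7.06 at 8 reads, 8.62 at 9 reads and 9.98 at 10 reads. These classes were looked at after the values were seen. Regions with 6 reads are also the class with the lowest share at start sites, 2.70%. How the submitters' peak caller treated regions with few reads is not given, and its part in this step was not tested.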
